A study of Mus musculus with 12 samples.

Results

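The heat shock chaperones described here are 10 genes, chosen by symbol: Hspa8, Hspa1a, Hspa1b, Hsph1, Dnajb1, Bag3, Hsp90aa1, Hsp90ab1, Hspd1 and Hspe1. All 10 were found among the 53656 genes counted, and 8 of them were among the 13383 genes with enough counts to be tested. Hspa1a and Hspa1b did not pass that filter. Messenger RNA had been counted in 12 libraries of immature thymocytes from mice, 3 in each of 4 groups. All mice carried both genes for the zinc finger factors Zfp148 and Zfp281 in floxed form (Zfp148 fl/fl; Zfp281 fl/fl). The double knockout (dKO) groups also carried Cre recombinase under the Cd4 promoter, which is active from the double-positive stage of T cell development, and the control groups did not. The ImCD4 groups were sorted as CD44 low, CD4+, CD8-, H2-Kb- and CD69+ cells, and the ImCD8 groups as CD44 low, CD8+, CD4-, TCRb+ and CD69+ cells. In all 6 ImCD8 libraries the genotype label says the opposite of the title. Groups follow the titles here.

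Zfp148 and Zfp281, the targeted genes, went with the titles. Zfp148 measured 180.2 ± 3.01 CPM (counts scaled to a common library size, SD, n = 3) in control and 66.5 ± 3.13 CPM in dKO ImCD4, and 165 ± 4.84 and 54.9 ± 8.70 CPM in the ImCD8 libraries titled control and dKO. Zfp281 measured 486 ± 65.6 and 18.7 ± 2.62 CPM in ImCD4, and 119 ± 7.93 and 12.8 ± 2.36 CPM in ImCD8. Depth lay between 7315833 and 10943143 gene counts. Markers of the CD4 gate (Cd4, Zbtb7b) summed to between 1326 and 1653 CPM in the ImCD4 and between 1.49 and 11.4 CPM in the ImCD8 libraries. Markers of other cells summed to at most 3.72 CPM for B cells, 4.47 CPM for myeloid and dendritic cells, 16.9 CPM for red cells and platelets and 22.1 CPM for thymic epithelium. The labels do not say whether the libraries of a group came from separate mice, so the p-values here speak of library-to-library spread only, which could be technical. In bulk RNA, a higher level in each cell and more cells with a high level cannot be told apart.

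Heat shock proteins are molecular chaperones, which bind unfolded or partly folded proteins and keep them from clumping. HSP70 chaperones work in an ATP-driven cycle that is started by J-domain proteins and reset by nucleotide exchange factors, and many of their clients pass on to HSP90, which completes the folding of kinases and receptors, in T cells among them Lck. Some members of the family are present at all times. Others are switched on by heat shock factor 1 (Hsf1), which binds repeats of the unit nGAAn in promoters when unfolded protein builds up.

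The members covered a wide range of levels, in the same rough order in each group. Compared per kilobase of exon, since longer genes give more counts, Hsp90ab1, the constitutive cytosolic HSP90, had the highest mean level, from 321 ± 104 in control ImCD4 to 423 ± 75.5 CPM per kilobase in dKO ImCD8. Hspa8, the constitutive HSP70, came next with 225 ± 113 to 339 ± 104 CPM per kilobase, and its libraries overlapped with those of Hsp90ab1 in every group. Hspd1, the mitochondrial chaperonin, had 77.8 ± 17.6 to 106 ± 17.0 CPM per kilobase and did not overlap with Hspa8 in any group. Dnajb1, Hspe1 and Hsp90aa1 followed with means between 49.5 and 90.3 CPM per kilobase. Dnajb1 stood first of them in ImCD4 and Hspe1 in ImCD8, and neighbours among the 3 overlapped in every group. Hspd1 lay above the next gene without overlap in control ImCD4, and overlapped with it in the other 3 groups. Hsph1 was lower, at 15.1 ± 13.9 to 19.7 ± 14.0 CPM per kilobase, and overlapped with neither of its neighbours. Bag3, Hspa1b and Hspa1a lay below 0.40 CPM per kilobase on average. Bag3 was above Hspa1b without overlap in control ImCD4, and overlapped with it in the other 3 groups. Hspa1b was above Hspa1a without overlap in both ImCD8 groups and overlapped with it in ImCD4. The plot of levels per exon length shows this order.

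**Figure D1:**
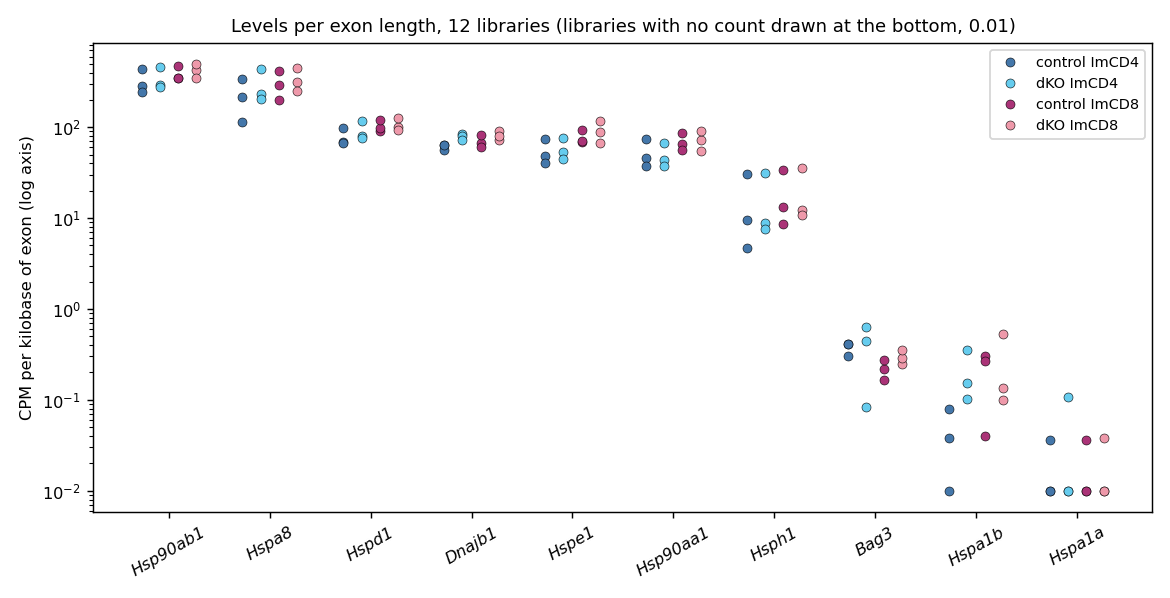
Level of each member in 12 libraries, in CPM per kilobase of exon on a log axis, with each point 1 library and colours the 4 groups; libraries without a count are drawn at the lower edge. Hsp90ab1 and Hspa8 sit highest, Hsph1 spreads most among the well-counted genes, and Bag3, Hspa1b and Hspa1a sit far below the rest.

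Hspa1a (chr17:34969190-34972156, minus strand, GRCm38) and Hspa1b (chr17:34956436-34959238, minus strand) encode the stress-inducible HSP70, the family member that rises most sharply on heat shock in most cells. In these thymocytes they were close to silent. Hspa1a had 6 counts over the 12 libraries, and 8 libraries had none, which allows up to 3 counts or 0.268 to 0.423 CPM in each (counting error only). All 6 counts lay in replicate 3 of the 4 groups, with 1 count in control ImCD4, 3 in dKO ImCD4, 1 in control ImCD8 and 1 in dKO ImCD8. Hspa1b had 54 counts. It had 0, 2 and 1 counts in the control ImCD4 libraries and 11, 3 and 4 in dKO ImCD4, and the groups did not overlap in counts. The nearest libraries of these groups held 2 and 3 counts. Of all tested genes, 18.1% were higher in dKO ImCD4 without overlap. Hspa1b had 1, 6 and 7 counts in the libraries titled control ImCD8 and 3, 3 and 13 in those titled dKO ImCD8, and these overlapped. No test was made of either gene, also not after their counts were summed as 1 gene, since the sum did not pass the filter on low counts either.

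The pair is also hard to count, because the copies are nearly identical. Their coding sequences agree in 99.5% of aligned bases, and 66.3% of all 50-base windows in Hspa1a transcripts occur in transcripts of other genes, 58.8% in Hspa1b alone. Reads that fit both copies equally well are commonly left out of such counts, so the level of each is uncertain and may be understated. After the coding sequence they agree in 51.6% of aligned bases. Hspa1a is also overlapped by Gm20481 on the opposite strand over 2225 bases, but Gm20481 is not among the genes counted here. The promoters are near copies too. The 250 bases before each start site (RefSeq, GRCm38.p6) agree in 247 positions, or 98.8%, and are shown in full because the pair is the textbook target of Hsf1 and yet near silent here. Capitals mark GAAGATTC, a match to GAANNTTC, that is 2 inverted heat shock units, whose first base lies 104 bases before the start. The first sequence is chr17:34972157-34972406 and the second chr17:34959239-34959488, both of the minus strand.
Hspa1a: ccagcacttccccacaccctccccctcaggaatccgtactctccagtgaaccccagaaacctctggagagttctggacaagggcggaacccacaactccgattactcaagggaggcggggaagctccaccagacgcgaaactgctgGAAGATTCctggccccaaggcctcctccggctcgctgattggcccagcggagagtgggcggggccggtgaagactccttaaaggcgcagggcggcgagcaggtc
Hspa1b: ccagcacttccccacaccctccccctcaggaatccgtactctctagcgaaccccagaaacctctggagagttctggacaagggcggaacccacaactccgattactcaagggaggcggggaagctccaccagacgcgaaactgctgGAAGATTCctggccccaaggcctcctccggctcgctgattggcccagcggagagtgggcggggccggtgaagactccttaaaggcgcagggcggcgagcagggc

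Hspa8 (chr9:40800984-40810087, plus strand) encodes the HSP70 that is present in unstressed cells and carries out most routine folding and the uncoating of clathrin vesicles. It measured 936, 495 and 1467 CPM in control ImCD4 replicates 1, 2 and 3, and 991, 871 and 1866 CPM in dKO ImCD4. It measured 1241, 854 and 1802 CPM in control ImCD8 and 1343, 1076 and 1952 CPM in dKO ImCD8. Replicate 3 was the highest library in each group, and all 4 pairs of groups compared overlapped. The log2 fold change in dKO against control was 0.36 ± 0.47 (SE) in ImCD4 (edgeR adjusted p = 0.669, 95% interval -0.70 to 1.43) and 0.16 ± 0.47 in ImCD8 (adjusted p = 0.906, interval -0.90 to 1.23), neither larger than the spread between libraries. Its transcripts share 39.4% of their 50-base windows with other genes, most of them with Gm15459, and its introns hold the small nucleolar RNA genes Snord14c, Snord14d and Snord14e.

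Hsph1 (chr5:149614287-149636376, minus strand) encodes HSP110, which resets HSP70 by nucleotide exchange and holds unfolded proteins itself. It measured 69.9, 34.5 and 224 CPM in control ImCD4, and 64.8, 55.7 and 225 CPM in dKO ImCD4. It measured 95.6, 61.8 and 244 CPM in control ImCD8, and 90.2, 79.1 and 260.2 CPM in dKO ImCD8. The replicate 3 libraries formed a band of their own, from 224 to 260.2 CPM, above the 8 others at 34.5 to 95.6 CPM, whatever the genotype and gate. The fold changes between groups were small beside this spread: 0.06 ± 0.91 on the log2 scale in ImCD4 (adjusted p = 0.976, 95% interval -2.02 to 2.15) and 0.09 ± 0.90 in ImCD8 (adjusted p = 0.981, interval -1.98 to 2.16). With each library left out in turn the ImCD4 value ran from -0.86 to 1.14. Among 7500 windows of its transcripts, 0% were shared with another gene, so its counts do not carry the doubt that holds for the HSP70 copies.

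Dnajb1 (chr8:83608193-83612653, plus strand) encodes HSP40, the J-domain protein that starts the HSP70 cycle. It was the 1 of 8 tested members called by genotype, in ImCD4, where 13.4% of all tested genes were called. It measured 204, 182 and 206 CPM in control ImCD4 and 272, 256 and 229 CPM in dKO ImCD4. All 3 dKO libraries thus lay above all 3 control libraries, as they did for 18.1% of all tested genes. The means were 197 ± 13.4 and 252 ± 21.8 CPM (SD, n = 3), a log2 fold change of 0.36 ± 0.11 or 1.28-fold (edgeR adjusted p = 0.0461). In ImCD8 it measured 216, 195 and 265 CPM in the libraries titled control and 291, 230.1 and 256 CPM in those titled dKO, which overlapped. The log2 fold change there was 0.20 ± 0.11 (adjusted p = 0.371). The effect was not shown to differ between the gates, with a difference of -0.16 ± 0.16 in ImCD8 against ImCD4 (adjusted p = 0.780, 95% interval -0.50 to 0.18). Dnajb1 was also one of the 2 tested members whose replicate 3 libraries were not set apart, the other being Bag3.

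The ImCD4 call of Dnajb1 was close to the threshold. It passed in 14 of 22 alternatives, with an adjusted p from 0.000374 to 0.155, and its log2 fold change stayed between 0.30 and 0.46 in all 22. It was lost with library size only (adjusted p = 0.0530), with a filter of over 5 CPM in 3 libraries (0.0653), and without control ImCD4 replicate 1 (0.0941), 2 (0.155) or 3 (0.0744), dKO ImCD4 replicate 1 (0.145) or 2 (0.124), or control ImCD8 replicate 1 (0.0574). Between the third libraries alone the log2 difference was 0.15, and between the means of the other libraries 0.46.

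Bag3 (chr7:128523616-128546981, plus strand) encodes a nucleotide exchange factor of HSP70 that directs damaged proteins to autophagy, and is strongly induced by stress in other cells. It had 93 counts in all, from 2 to 18 in a library, which sets wide limits. It passed the filter through its ImCD4 counts, since each ImCD8 library had between 4 and 8, under the minimum of 10. A lower level of Bag3 in ImCD8 is thus partly set by the filter and is no result. It measured 1.06, 0.773 and 1.06 CPM in control ImCD4 and 1.61, 1.15 and 0.214 CPM in dKO ImCD4. The ImCD8 libraries measured 0.560, 0.704 and 0.425 CPM for control and 0.635, 0.736 and 0.910 CPM for dKO. The lowest library of all was dKO ImCD4 replicate 3. The control ImCD8 libraries lay below the control ImCD4 libraries without overlap, as 27.6% of all tested genes did (28.8% lay above, 56.4% in all). The log2 fold change was -0.79 ± 0.56, which was not called (adjusted p = 0.269).

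Hsp90aa1 (chr12:110690605-110702728, minus strand) is the inducible and Hsp90ab1 (chr17:45567775-45573271, minus strand) the constitutive gene of cytosolic HSP90. Hsp90aa1 measured 181, 147 and 290.5 CPM in control ImCD4, 172, 148 and 264 CPM in dKO ImCD4, 254, 223 and 339.6 CPM in control ImCD8 and 282, 213 and 359 CPM in dKO ImCD8. Hsp90ab1 measured 849, 725 and 1316 CPM in control ImCD4, 880.3, 826 and 1385 CPM in dKO ImCD4, 1038, 1051 and 1427 CPM in control ImCD8 and 1279, 1035 and 1488 CPM in dKO ImCD8. In both genes replicate 3 was the highest of each group. With all libraries, ImCD8 and ImCD4 overlapped in both genes and in each genotype. Leaving replicate 3 aside, the other ImCD8 libraries lay above the other ImCD4 libraries of the same genotype. Replicate 3 was singled out from these same data, and the share of all tested genes separated in this way was not determined. With all libraries, 28.8% of all tested genes were higher in ImCD8 without overlap in control, and 25.6% in dKO. By genotype, Hsp90aa1 changed by -0.08 ± 0.32 in ImCD4 (adjusted p = 0.904) and 0.06 ± 0.32 in ImCD8 (0.951), and Hsp90ab1 by 0.10 ± 0.27 (0.860) and 0.11 ± 0.27 (0.886). Hsp90aa1 shares 47.5% of its 50-base windows with other genes, mainly Gm12346, and Hsp90ab1 shares 3.44%.

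Hspd1 (chr1:55077835-55088243, minus strand) encodes HSP60 and Hspe1 (chr1:55088132-55091307, plus strand) its lid HSP10, which together fold proteins inside mitochondria. The genes lie head to head, overlap by 112 bases, and share 1 promoter region. Hspd1 measured 181, 177 and 259 CPM in control ImCD4, 211, 203 and 307 CPM in dKO ImCD4, 242, 257 and 319 CPM in control ImCD8 and 264, 245 and 330.3 CPM in dKO ImCD8. Hspe1 measured 71.7, 59.0 and 110.1 CPM in control ImCD4, 78.3, 66.7 and 113 CPM in dKO ImCD4, 102, 105 and 137 CPM in control ImCD8 and 130, 98.2 and 171 CPM in dKO ImCD8. Replicate 3 was again the highest library of each group in both genes. By genotype Hspd1 changed by 0.22 ± 0.20 in ImCD4 (adjusted p = 0.525) and 0.03 ± 0.20 in ImCD8 (0.960), and Hspe1 by 0.10 ± 0.29 (0.872) and 0.21 ± 0.29 (0.783). Hspd1 shares 42.1% of its windows with other genes, mainly the pseudogene Hspd1-ps3, and Hspe1 shares 22.8%. The strand setting of the counting is unknown, and reads from the overlapped bases may be assigned to neither gene.

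**Figure D2:**
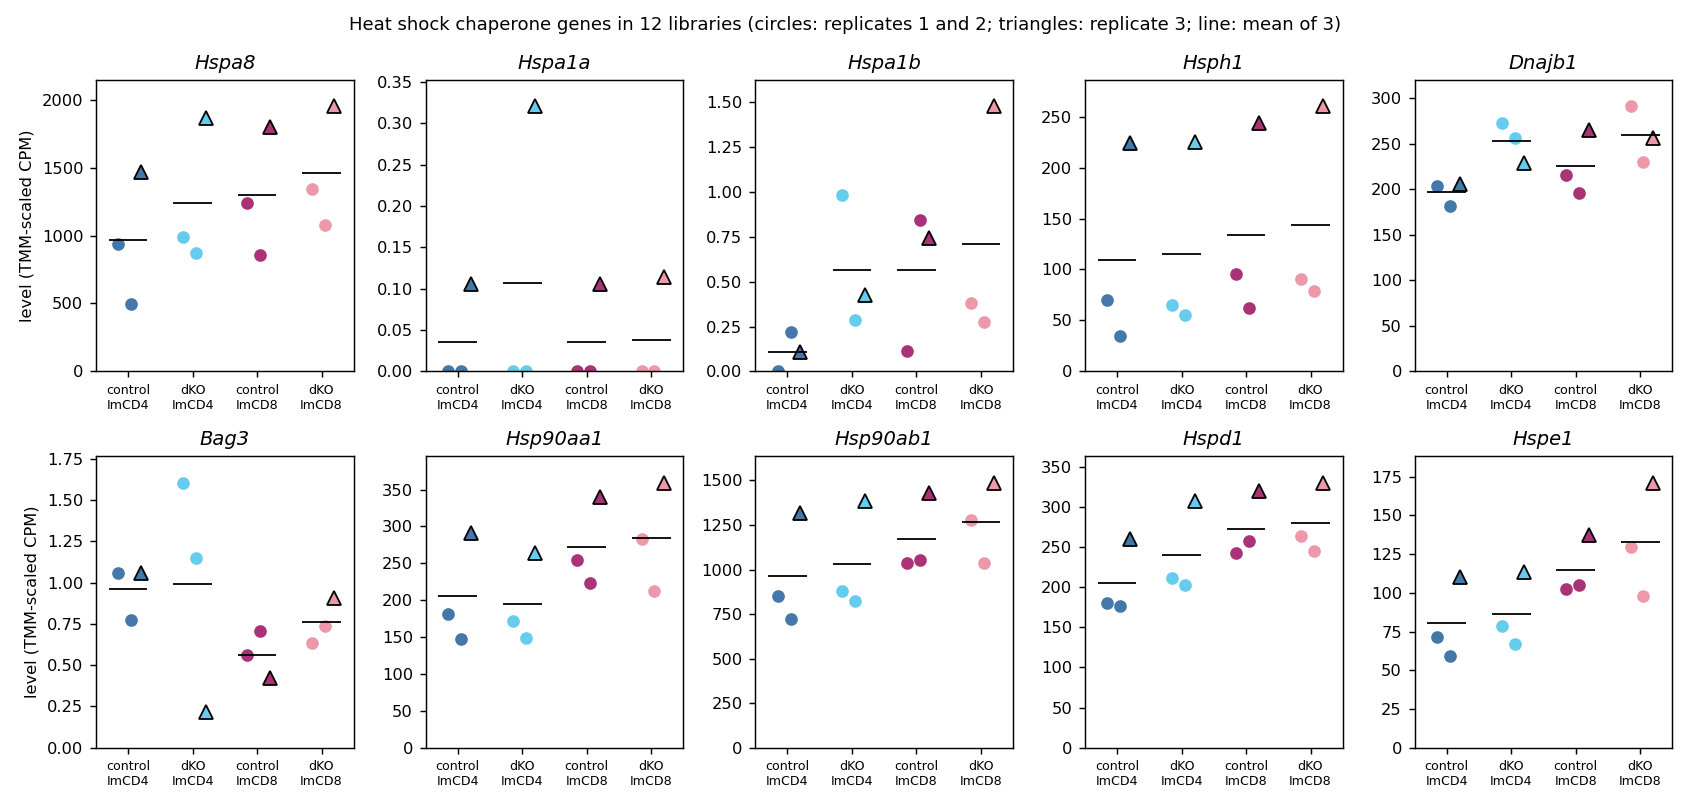
CPM of each of the 10 members in 12 libraries, 1 panel a gene with its own axis from 0; circles are replicates 1 and 2, triangles replicate 3, and lines the mean of 3. The triangle is the highest point of every group for Hspa8, Hsph1, Hsp90aa1, Hsp90ab1, Hspd1 and Hspe1, and Hsph1 shows the widest gap.

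Promoter sequences were matched by symbol to RefSeq windows of 300 bases (250 before and 50 after a start site, GRCm38.p6), and 7 of the 10 members had one, all but Hspa8, Hsp90aa1 and Hsp90ab1. The element bound by an Hsf1 trimer was searched on both strands as 3 inverted units, GAANNTTCNNGAA or TTCNNGAANNTTC, and as 2 units, GAANNTTC or TTCNNGAA, which every match to 3 units also contains. The 3-unit element is in 198 of all 32851 windows (0.603%) and the 2-unit element in 4946 (15.1%). Among the members Hsph1, Hspd1 and Hspe1 hold the 3-unit element. Hspa1a, Hspa1b and Bag3 hold only the 2-unit element, and the windows of Dnajb1 hold neither. Of the other chaperones listed for this report, Chordc1 and Dnajb6 hold the 3-unit element. Their replicate 3 libraries lay 0.83 and 0.01 above the mean of the others in log2 CPM, averaged over the groups. A match is a description of these letters and no evidence of binding. The sites of Hsph1 (chr5:149636279-149636308, minus strand) and of the shared Hspe1 and Hspd1 promoter (chr1:55088053-55088082, plus strand) are shown, because these are the members with the 3-unit element, with the matches in capitals. The match in Hsph1 begins at base 16 after the start site of one RefSeq window and base 37 of another. The one read from the Hspe1 strand begins 89 bases before its start and holds both 3-unit patterns, overlapping.
Hsph1: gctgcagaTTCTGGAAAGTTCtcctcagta
Hspe1 and Hspd1: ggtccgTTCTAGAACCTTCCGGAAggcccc

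In 6 of the 8 tested members replicate 3 was the highest library of every group. Replicates 1 and 2 also differed, as for Hsp90ab1 in dKO ImCD8, with 1279 and 1035 CPM beside 1488 CPM in replicate 3. The 4 replicate 3 libraries, 1 in each group, also stand apart from the other 8 on the third principal component of all genes. This component carried 5.31% of the variance. Replicate numbers were given here in the order of listing, and the labels do not say that libraries of the same number share anything. The members' summed level was 3874 CPM in the third library against 2493 and 1819 CPM in the others of control ImCD4, and 4391 against 2672 and 2428 CPM in dKO ImCD4. It was 4535 against 3190 and 2749 CPM in control ImCD8, and 4819 against 3681 and 2977 CPM in dKO ImCD8. Replicate 3 was thus highest and replicate 2 lowest in all 4 groups. Of the 8 tested members 6 were above both other libraries in all 4 groups, as were 7.17% of all tested genes, and 0 were below both in all 4, against 8.14%. This is a description, since the libraries were known to differ in these data, and no test was made.

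Hsph1 had the widest gap among the members. In log2 CPM its replicate 3 lay above the mean of the other libraries by 2.19 in control and 1.90 in dKO ImCD4, and by 1.66 in control and 1.62 in dKO ImCD8. The mean of 1.84, or 3.59-fold, ranked 2 among 13383 tested genes. Hspa8 followed with a mean of 0.90 (rank 33), Hsp90aa1 with 0.66 (rank 95), Hspe1 with 0.60 (rank 126), Hsp90ab1 with 0.57 (rank 159) and Hspd1 with 0.46 (rank 294). In each of these 6 genes the gap was wider in both ImCD4 groups than in control ImCD8. Dnajb1 behaved differently, with gaps of 0.10, -0.20, 0.37 and -0.01 in the same order (rank 4532), and so did Bag3, with 0.18, -1.87, -0.40 and 0.32 on its few counts. Over the 8 members the median gap was 0.58, against -0.01 over all tested genes, where the middle 50% ran from -0.13 to 0.11.

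**Figure D3:**
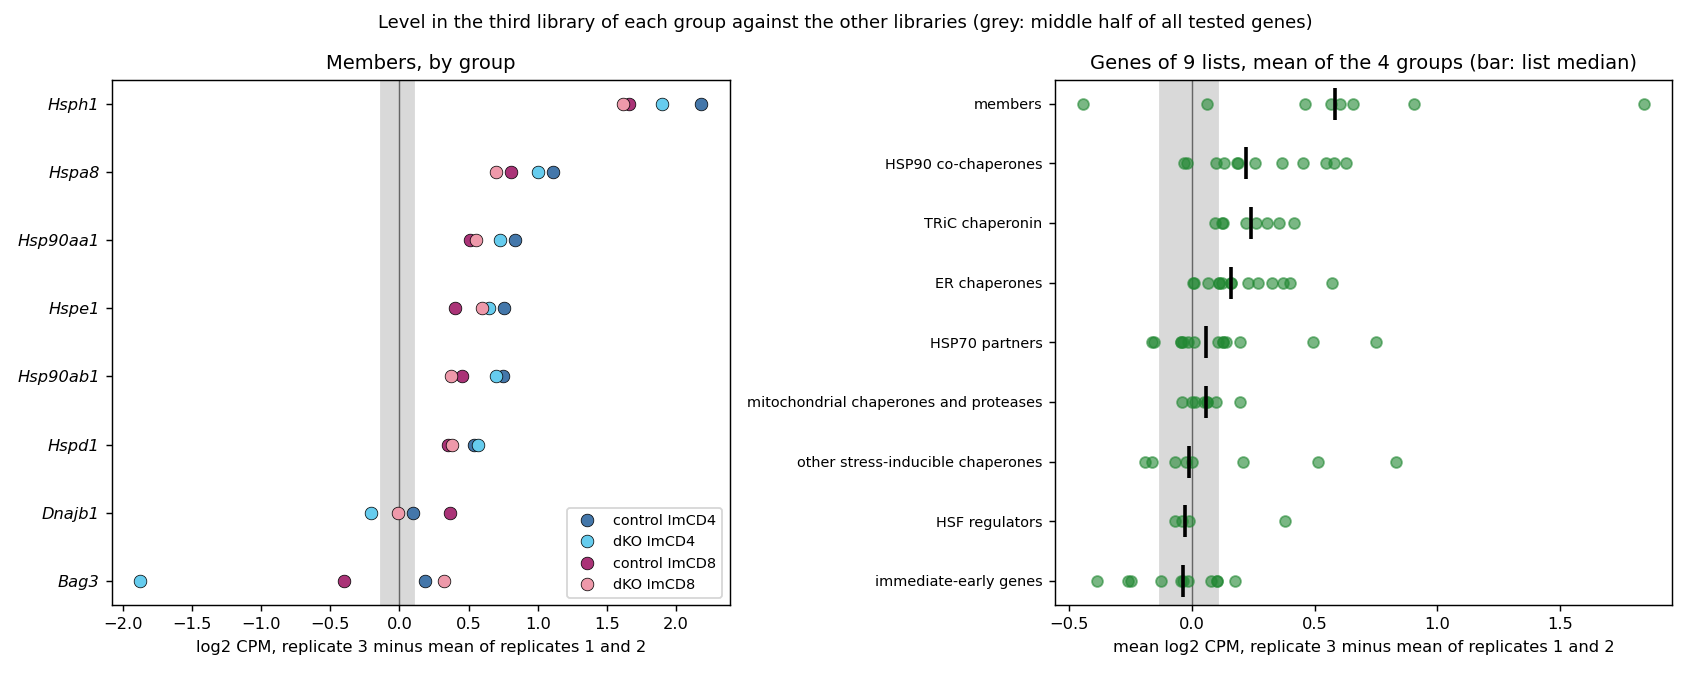
Left, log2 CPM of replicate 3 minus the mean of replicates 1 and 2 for the 8 tested members, 1 point a group; right, the same averaged over the 4 groups for the genes of 9 lists, with a bar at the list median. Grey marks the middle 50% of all tested genes, and 6 members lie to its right in all 4 groups, while Dnajb1 and Bag3 scatter around 0.

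Other genes of the chaperone system were read from lists chosen by function. Of the HSP90 co-chaperones, which load clients and pace the HSP90 cycle, 8 of 12 tested were above both other libraries in all 4 groups, with the widest mean gaps in Stip1 (0.63), which hands clients from HSP70 to HSP90, Ahsa1 (0.58), which speeds the ATPase of HSP90, and Fkbp4 (0.54). The TRiC chaperonin, which folds actin and tubulin, had 7 of 8 subunits above, led by Cct3 (0.42) and Tcp1 (0.36). Of the endoplasmic reticulum chaperones 7 of 14 were above, among them Hsp90b1 (0.57) and Hspa5 (0.33). Of the HSP70 partners 5 of 14 were above and Bag6 was below in all 4, and of the other stress-inducible genes 2 of 8 were above, Chordc1 (0.83) and Dnaja1 (0.51). Of 4 tested regulators of the heat shock response 1 was above in all 4, Hsf1, by 0.36, 0.39, 0.40 and 0.37, and the list median was -0.03. The list of mitochondrial chaperones and proteases, which leaves out Hspd1 and Hspe1, had 0 of 8 above in all 4, near the 7.17% of all genes, and its median gap was 0.06. Immediate-early genes, which rise within minutes of cell handling or receptor signals, had 0 of 11 above, and Nr4a1 and Btg2 were below in all 4.

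Several other measures moved with the third libraries. Rag2, a marker of double-positive thymocytes, was below both other libraries in all 4 groups, with a mean gap of -1.29, and Rag1 was below in 3 of 4, with -1.68. The summed level of this 3-gene list was at most 2.02 CPM in the third libraries and at most 12.3 CPM in any library. Cd8a had gaps of -1.57 and -1.80 in control and dKO ImCD4, and Cd4 had gaps of -1.34 and -1.29 in control and dKO ImCD8. Zbtb7b, the other marker of the CD4 gate, had gaps of 0.28 and 0.02 there. Cd69, a marker of recent receptor signals, had gaps of 0.14, 0.27, 0.10 and 0.30. Of the 5 T cell markers it was the 1 above in all 4 groups, and their median gap was -0.05. The immediate-early genes, which also rise with receptor signals, had a median of -0.03, and Nr4a1 a mean gap of -0.39. The part of these differences in the members' levels was not tested. Measures of the libraries moved less: gene counts in the third libraries ran from 9173424 to 9654004 and genes detected from 19367 to 19942, both inside the range of the other 8. The share of mitochondrial counts was 0.961% to 1.70% in the third and 0.633% to 1.54% in the other libraries.

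Over the 12 libraries the closest pair of members was Hsp90ab1 and Hspd1, whose centred log2 CPM differed by a root mean square of 0.10, followed by Hsp90aa1 and Hspe1 with 0.11. Hsph1 lay 0.45 from its nearest member, Hspa8, and Dnajb1 lay 0.27 from Hspd1. Bag3 was at least 0.55 from every other tested member. Among genes outside the list, and leaving out predicted genes with Gm or Rik names, those nearest to the members' mean profile were Ahsa1 (0.15), AC159257.5 (0.15), Fkbp4 (0.15), Hsp90b1 (0.16) and Zfp511 (0.16). The mean profile itself had a root mean square of 0.34. Nearest to Hsp90ab1 were Fkbp4 (0.12), Hspd1-ps3 (0.13) and Ahsa1 (0.14), and nearest to Hspd1 were Coq2 (0.10), Cbfb (0.11) and Ptges3 (0.11). Hsph1 had no such near neighbour: the nearest were RP23-299H4.3 (0.43), RP24-325G24.1 (0.45) and RP24-407P8.1 (0.46). These are descriptions over 12 libraries that share groups, and Hspa1a had no tested profile.

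The loss of Zfp148 and Zfp281 was the main question of the study. Among the heat shock chaperones 1 gene was called in ImCD4, which is near the share over all tested genes. Of the 8 tested members 1 rose in dKO ImCD4 (Dnajb1) and 0 fell, while 13.4% of all tested genes passed, 7.26% higher and 6.16% lower. The median log2 fold change over the members was 0.10, against 0.02 over all tested genes. The libraries of 1 of 8 members did not overlap between the groups, again Dnajb1, against 33.8% of all tested genes (18.1% higher in dKO). In ImCD8, by title, 0 of 8 passed, against 6.14% of all tested genes (2.62% higher and 3.53% lower), and the median was 0.14 against 0.01. Members without overlap numbered 0 there, against 21.8% of all genes (10.3% higher and 11.5% lower). At an unadjusted p under 0.05 the count in ImCD8 was also 0, and DESeq2 and limma-voom called 0. The difference of the effect between the gates passed for 0 of 8, against 0.433% of all genes (0.179% higher and 0.254% lower), and for 0 with DESeq2, limma-voom or an unadjusted p under 0.05.

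**Figure D4:**
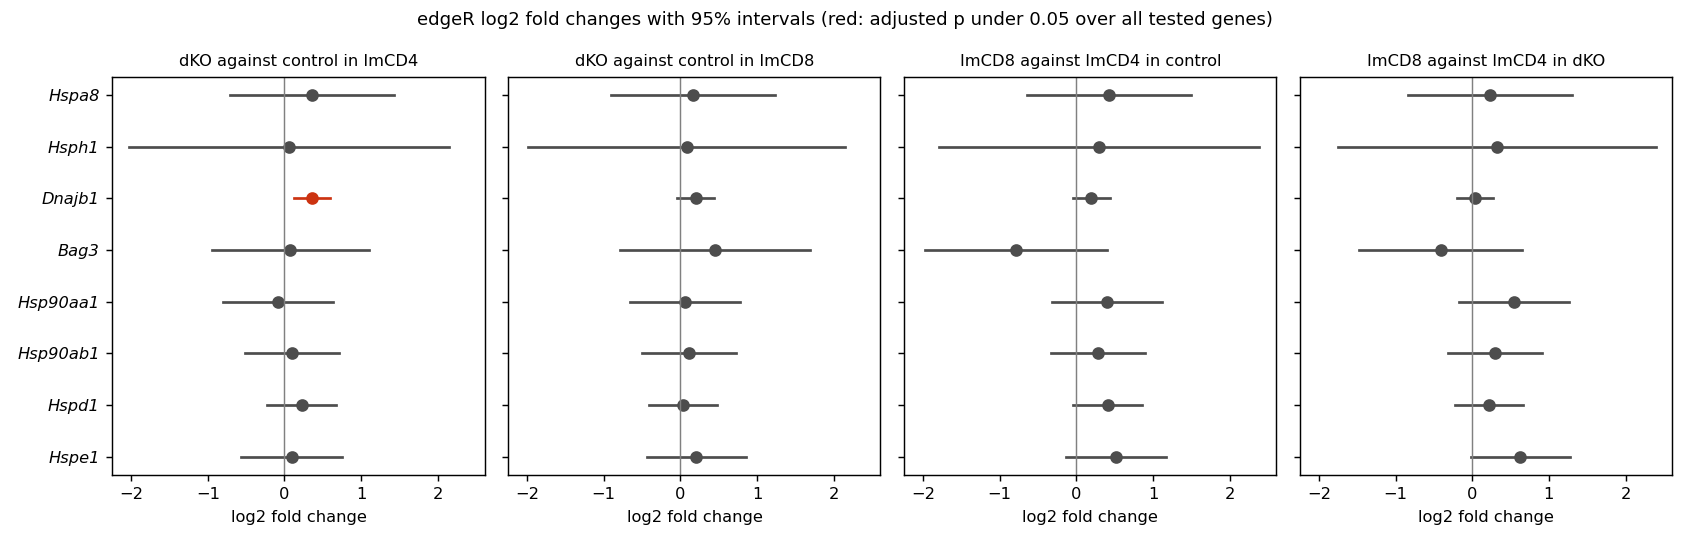
log2 fold change of the 8 tested members with 95% intervals from edgeR, in the dKO comparison of each gate and the ImCD8 against ImCD4 comparison of each genotype; red marks an adjusted p under 0.05. Dnajb1 in ImCD4 is the 1 red point, and the interval of Hsph1 is the widest, from -2.02 to 2.15 in ImCD4.

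Among the wider chaperone system, the clearest differences by genotype were in partners of HSP70. In ImCD4 Hspa13, an HSP70-like protein of the endoplasmic reticulum, fell from 40.9 ± 1.85 to 27.7 ± 3.28 CPM (log2 fold change -0.56 ± 0.11, adjusted p = 0.00295), and Dnajc7, a J-domain protein that binds both HSP70 and HSP90, from 123 ± 12.1 to 94.3 ± 1.99 CPM (-0.39 ± 0.08, adjusted p = 0.00441). No partner rose and 12 of 14 did not pass, while 6.16% of all genes fell. In ImCD8, by title, 3 of 14 fell, beside 3.53% of all genes, namely Hspa13 (-0.69 ± 0.12, adjusted p = 0.00158), Dnajc7 (-0.31 ± 0.08, 0.0323) and Bag2 (-1.18 ± 0.32, 0.0383). The calls of Hspa13 in both gates and of Dnajc7 in ImCD4 passed in all 22 alternatives. Dnajc7 in ImCD8 was lost without control ImCD8 replicate 1 (0.111) or 3 (0.112), or dKO ImCD8 replicate 1 (0.130) or 2 (0.0619). Bag2 was lost without dKO ImCD4 replicate 1 (0.0562), control ImCD8 replicate 1 (0.0794) or 3 (0.151), or dKO ImCD8 replicate 1 (0.134) or 2 (0.123).

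Of the 14 other stress-inducible genes 8 were tested. In dKO ImCD4 2 rose and 0 fell, beside 7.26% of all genes that rose and 6.16% that fell. In ImCD8, by title, 1 rose and 1 fell, beside 2.62% and 3.53% of all genes. Of the 2 that rose in ImCD4, Dnajb4, a J-domain protein, rose by 0.32 ± 0.10 (edgeR adjusted p = 0.0479), and passed in 11 of 22 alternatives. Its call ended without any 1 of the 6 ImCD4 libraries (adjusted p from 0.0576 to 0.161) or without control ImCD8 replicate 1 (0.0527). In ImCD8 Dnajb5, another J-domain protein, fell by 0.47 ± 0.13 on the log2 scale (0.0363). This call was lost without control ImCD8 replicate 1 (0.117) or 2 (0.152), or dKO ImCD8 replicate 1 (0.0665) or 3 (0.140). Of the 4 tested regulators of the heat shock response 1 rose in dKO ImCD4 and 0 fell, and 0 passed in ImCD8. Hsbp1, which binds and restrains Hsf1, was the 1 that rose, from 149 ± 6.84 to 184 ± 4.68 CPM (0.31 ± 0.07, adjusted p = 0.00821). It passed in all 22 alternatives. Hsf1 measured 93.9 ± 14.2 and 88.9 ± 14.5 CPM in control and dKO ImCD4 (-0.08 ± 0.16, adjusted p = 0.796).

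Of the 14 endoplasmic reticulum chaperones 5 rose in dKO ImCD4 and 0 fell, beside 7.26% of all genes that rose, with a list median of 0.21 against 0.02 over all tested genes, and 0 passed in ImCD8. The differences between the gates passed for 0 of 14. The widest rise was in Sdf2l1, a partner of the reticulum's HSP70, from 18.2 ± 3.09 to 30.9 ± 8.82 CPM (0.76 ± 0.18, adjusted p = 0.0124), a call lost without control ImCD4 replicate 2 (0.0577). Dnajc3, a J-domain protein of the reticulum, rose by 0.43 ± 0.13 (0.0403), and was lost without control ImCD4 replicate 1 (0.144) or 2 (0.0866), dKO ImCD4 replicate 1 (0.119) or 2 (0.137), or control ImCD8 replicate 2 (0.0531). Pdia4, a disulfide isomerase, rose by 0.40 ± 0.12 (0.0426) and passed in 12 of 22 alternatives. It was lost without control ImCD4 replicate 1 (0.151) or 2 (0.149), dKO ImCD4 replicate 2 (0.0709) or 3 (0.152), control ImCD8 replicate 1 (0.0525) or 2 (0.0530), or dKO ImCD8 replicate 1 (0.0533).

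Of the HSP90 co-chaperones 2 of 12 rose in ImCD4, Fkbp5 (0.39 ± 0.10, adjusted p = 0.0165), a known glucocorticoid target, and the phosphatase gene Ppp5c (0.35 ± 0.10, 0.0263), and 0 passed in ImCD8, where 6.14% of all genes did. The share that rose over all genes in ImCD4 was 7.26%. Fkbp5 was lost without control ImCD4 replicate 2 (0.0505) or 3 (0.0608) or dKO ImCD4 replicate 3 (0.0656). Ppp5c was lost without control ImCD4 replicate 1 (0.122) or 2 (0.0648) or dKO ImCD4 replicate 2 (0.0758) or 3 (0.109). Of the 8 TRiC subunits 1 rose in dKO ImCD4 and 0 fell, and 0 passed in ImCD8. The 1 that rose was Cct7, by 0.26 ± 0.07 (0.0253). It was lost without control ImCD4 replicate 1, 2 or 3, or dKO ImCD4 replicate 2 or 3 (adjusted p from 0.0515 to 0.0985). Of the mitochondrial list 0 of 8 passed in either gate. Of the 11 immediate-early genes, which mark handling as well as signals, 2 rose and 1 fell in dKO ImCD4, beside 7.26% and 6.16% of all genes. Ier2 (0.62 ± 0.08) and Jund (0.61 ± 0.11) rose and Dusp1 fell by 0.61 ± 0.10 on the log2 scale there, and each passed in all 22 alternatives. In ImCD8 Dusp1 fell by 0.60 ± 0.12 on the log2 scale (0.00522, in all 22), and Ier2 rose by 0.28 ± 0.08 (0.0444, in 13 of 22). Of all genes 3.53% fell and 2.62% rose in ImCD8. Ier2 there was lost without control ImCD4 replicate 1 (0.0594) or 2 (0.0632), control ImCD8 replicate 1 (0.198), 2 (0.0785) or 3 (0.0542), or dKO ImCD8 replicate 1 (0.120) or 2 (0.113). The part of these differences in the members' levels was not tested.

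Single markers of cell types also passed by genotype. Of 5 T cell markers 1 rose in dKO ImCD4, beside 7.26% of all genes. Of the 5 fold changes 2 were above 0, and their median was -0.01. The gene was Cd3g, a T cell receptor subunit, at 0.30 ± 0.08 (adjusted p = 0.0233), lost without control ImCD4 replicate 2 or 3 or dKO ImCD4 replicate 2 or 3 (0.0558 to 0.107). Of 3 markers of the CD8 gate 1 passed, Runx3, which directs the CD8 fate. It rose by 0.36 ± 0.11 (0.0360), lost without control ImCD4 replicate 1 or 3 or dKO ImCD4 replicate 1 or 2 (0.0760 to 0.149). Of 6 epithelial markers 1 was tested, Epcam. In ImCD8, by title, it rose by 0.85 ± 0.21 (0.0196), beside 2.62% of all genes, lost without control ImCD8 replicate 1 (0.0910) or 3 (0.0588) or dKO ImCD8 replicate 1 (0.0977). The summed epithelial list ran from 8.96 to 10.4 CPM in control and from 12.4 to 22.1 CPM in dKO ImCD8, and the part of these markers in the chaperone levels was not tested.

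Settings other than a left-out library also ended calls among the genes named from these lists. With library size only, Dnajb4 (adjusted p = 0.0729), Dnajc3 (0.0541), Pdia4 (0.0508) and Runx3 (0.0603) in ImCD4 and Ier2 in ImCD8 (0.0597) did not pass. With the filter of over 5 CPM in 3 libraries this held for Dnajb4 (0.0650), Pdia4 (0.0539) and Runx3 (0.0537), and with no filter for Dnajb4 (0.0642). Without the third libraries it held for Dnajb4 (0.0754), Cct7 (0.0944) and Cd3g (0.0735), and with the term for them for Dnajc3 (0.0576). With limma-voom it held for Dnajb5 (0.0589). With only the 6 libraries compared it held for Dnajc3 (0.0675), Pdia4 (0.125) and Runx3 (0.0573) in ImCD4, and for Dnajb5 (0.101), Dnajc7 (0.0591), Ier2 (0.0939) and Epcam (0.0732) in ImCD8.

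The gates were compared within each genotype, since CD4 and CD8 lineage cells differ widely. In the control libraries 0 of 8 members passed in ImCD8 against ImCD4, although 45.3% of all tested genes did (23.1% higher and 22.1% lower), and in the dKO libraries 0 of 8, against 43.7% (22.1% higher and 21.6% lower). Libraries without overlap were found in control for Bag3, which had passed the filter through its ImCD4 counts, against 56.4% of all genes. In dKO they were found for 0 members, against 51.8% of all genes (25.6% higher and 26.2% lower). At an unadjusted p under 0.05 the counts were also 0 and 0. DESeq2 called 0 in both, and limma-voom called Hspd1 in control (adjusted p = 0.0429) and 0 members in dKO. The fold changes of 7 of 8 members were above 0 in each genotype, with medians of 0.35 and 0.26, against -0.01 and -0.00 over all tested genes. Hspe1 showed the widest, 0.52 ± 0.29 in control (adjusted p = 0.181) and 0.63 ± 0.29 in dKO (0.110). Among the other lists, in control 4 of 8 TRiC subunits, 4 of 8 mitochondrial genes and 2 of 12 HSP90 co-chaperones were higher in ImCD8 and 0 lower. In dKO these lists had 1 higher and 0 lower, 3 higher and 1 lower, and 1 higher and 2 lower. Of the HSP70 partners 5 were higher and 3 lower in control, and 3 higher and 2 lower in dKO, of 14. Of the endoplasmic reticulum chaperones 3 were higher and 1 lower in control, and 1 higher and 2 lower in dKO, of 14. These counts stand beside the shares of all genes above, and no list was tested against them.

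The lineage comparison depended on the third libraries. They were singled out from these same data, where most members were highest in them. Leaving them out, or fitting a term for them, takes away that spread of the members. The adjusted p-values of these fits are thus descriptions and no independent test. Without the third libraries, or with a model term for them, 4 of 8 members were higher in ImCD8 in each genotype. These were Hsp90aa1, Hsp90ab1, Hspe1 and Hspd1 in all 4 fits. Of all genes, 40.8% passed in control and 39.2% in dKO without the third libraries, and 51.0% and 49.4% with the term. Those higher in ImCD8 were 21.1% and 19.7% without the third libraries, and 26.0% and 24.6% with the term. No test was made of the members' share against these. Without the third libraries Hspe1 was higher by 0.67 ± 0.14 in control (adjusted p = 0.00281) and 0.65 ± 0.14 in dKO (0.00295). Hsp90aa1 was higher by 0.55 ± 0.15 (0.0214) and 0.63 ± 0.15 (0.0112), Hsp90ab1 by 0.41 ± 0.10 (0.00406) and 0.44 ± 0.10 (0.00247), and Hspd1 by 0.48 ± 0.08 (0.000102) and 0.30 ± 0.08 (0.00648). Between the third libraries alone the log2 differences pointed the same way, at 0.32 and 0.59 for Hspe1, 0.23 and 0.44 for Hsp90aa1, 0.12 and 0.10 for Hsp90ab1 and 0.30 and 0.11 for Hspd1 in control and dKO. Leaving out control ImCD4 replicate 3 alone was enough for Hspd1 in control (adjusted p = 0.0294). By genotype the term added Hspd1 in ImCD4, higher in dKO by 0.22 ± 0.07 (adjusted p = 0.0206), beside Dnajb1, while 20.0% of all genes passed in that fit.

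**Figure D5:**
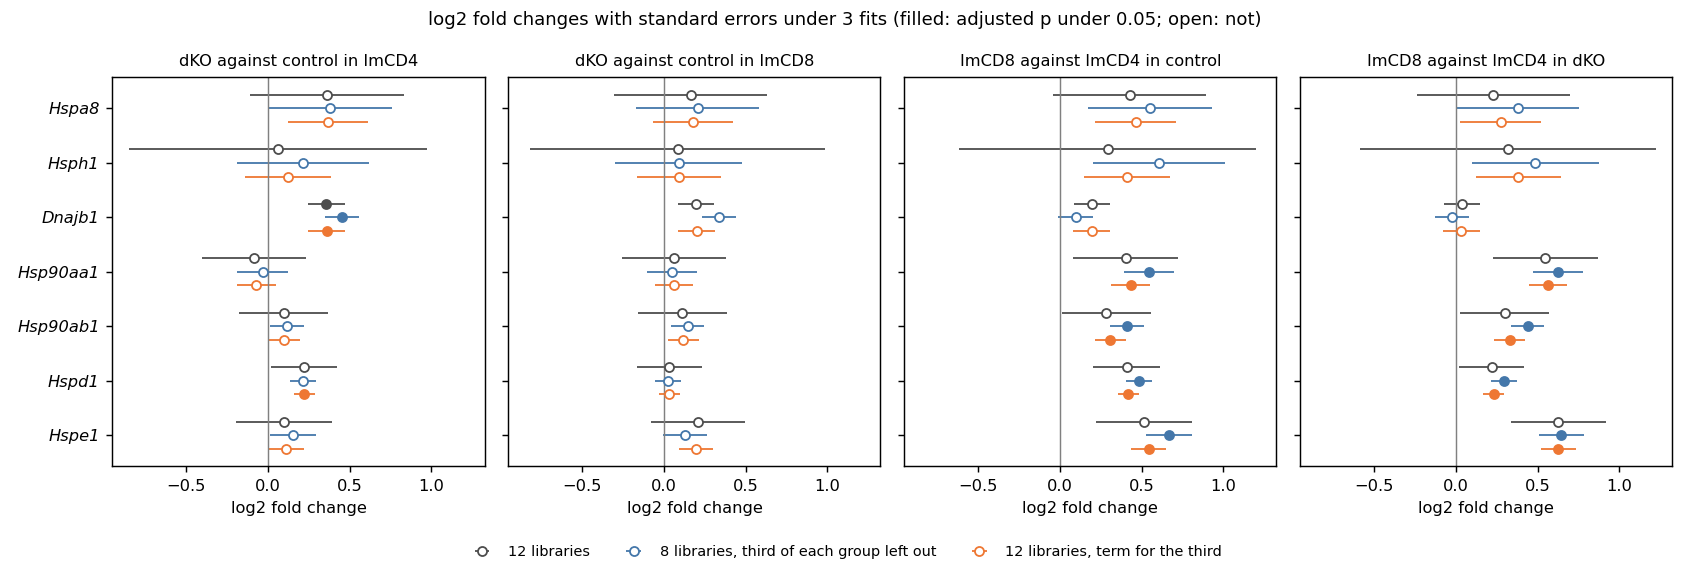
log2 fold change with its standard error for 7 members in 4 comparisons, under the fit of all 12 libraries, the fit of 8 libraries without the third of each group, and the fit of 12 with a term for the third; filled points passed at an adjusted p under 0.05. In ImCD8 against ImCD4 the errors of Hsp90aa1, Hsp90ab1, Hspe1 and Hspd1 shrink in both other fits, and values also shift. Hspe1 in control is at 0.54 with the term and 0.67 without the third libraries. Dnajb1 in ImCD4 passes in all 3 fits.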

How the data were processed

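Per the labels' protocols, RNA was isolated with the RNeasy Plus Micro kit and made into libraries with the SMARTer Low Input kit. The deposited values are raw counts per gene and library. The tools named are cutadapt 1.18, STAR 2.6.1 and HTSeq, with the mouse build mm10, per the submitters' processing notes. Annotation and strand: not given in the sources used here. Counts of 53656 genes were read, and rows that name no gene (no feature, 10.5% to 16.4% of all counted reads, and others) were left out. Reads that aligned to several places in the genome were 3.87% to 5.39%, and reads that fell on several genes 5.37% to 5.82%.

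Genes with at least 10 counts in enough libraries (filterByExpr of edgeR 4.0.16, minimum total 15, R 4.3.3) were kept, 13383 in all. After TMM scaling, 1 quasi-likelihood model with 4 group means (8 residual degrees of freedom) gave all 5 comparisons, with Benjamini-Hochberg adjustment over all genes and a threshold of 0.05. The script was tested on simulated data. Levels are TMM-scaled CPM, log2 CPM used a prior count of 2, and levels per kilobase used GENCODE M21 exon lengths. Each library was treated as 1 sample. Libraries of a group differed by more than counting noise (chi-square 3.73 or more for each degree of freedom), which does not show that they came from separate mice. Alternatives were other scalings, DESeq2 1.42.0, limma-voom (limma 3.58.1), other filters, each library left out, only the 6 libraries compared, the third libraries left out or fitted by a term, and Hspa1a and Hspa1b summed. Named were every member, up to 3 called genes each way per list in the dKO comparisons, and the nearest profiles. One gene that this rule names is not reported here. The members and lists were chosen with earlier results of these data known.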

Additional observations from a re-analysis of the deposited data

How the results depend on the processing

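No paired analysis was possible because the titles number the 12 libraries through, and replicate numbers, given in order of listing, do not pair libraries of different groups by any label. The term for the third libraries is no pairing from the labels. In the dKO comparison in ImCD4 the count of called members was 1, and 0 with library size only or the filter of over 5 CPM in 3 libraries, 2 with the term for the third libraries, and from 0 to 1 with each library left out. In ImCD8 against ImCD4 in control the count of called members was 0, and 1 with limma-voom, 4 without the third libraries, 4 with the term, and 0 to 1 with each library left out. Of all genes 45.3%, 48.5%, 40.8% and 51.0% passed in the main fit and the first 3 of these settings. In dKO the count was 0, and 4 without the third libraries and 4 with the term, beside 43.7%, 39.2% and 49.4% of all genes. The third libraries were singled out from these data, so these counts are descriptions. The counts of 0 in the dKO comparison in ImCD8 and in the difference between the gates were 0 in each alternative run. The fit of only 6 libraries could not be made for the difference. Of 854 values of single members under alternatives, 827 stayed on their side of the threshold, 19 passed that had not, 8 were lost, and 0 passed with the opposite sign. The median gap of the third libraries over the members was 0.58 with RLE factors and 0.57 with library size only. Low counts limited Hspa1a, Hspa1b and Bag3, and for Hsph1 in ImCD4 the standard error was 0.91 on the log2 scale.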
